A study of Mus musculus with 5 samples.

Results

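Lrp1b, Csmd1 and Macrod2 are 3 of the longest genes of the mouse, and the nuclear compartment along each of them was followed in Hi-C maps of hippocampal neuronal nuclei. Hi-C ligates and reads DNA fragments that are close in the nucleus. The bins of each gene were taken by position on build mm9. Lrp1b was taken as chromosome 2 from 40450001 to 42500000 (2050 kb), Csmd1 as chromosome 8 from 15900001 to 17500000 (1600 kb) and Macrod2 as chromosome 2 from 140250001 to 142200000 (1950 kb). They span 41, 32 and 39 bins of 50 kb. All 112 bins had a value in all 5 libraries, of 47652 bins analysed on 18 autosomes and X.

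By title there were 2 Basal, 1 Early and 2 Late libraries. All 5 came from hippocampus of ArcCreERT2 x R26R-STOP-floxed mice, whose floxed reporter is eYFP, a yellow fluorescent protein, with the genotype label +/+. In such mice a Cre recombinase driven by Arc, a gene switched on in active neurons, marks cells active around a dose of 4-Hydroxytamoxifen. All mice had the dose before contextual fear conditioning, per the labels' protocols, and libraries were made as biological replicates from 100000 cells per group, collected from 2 animals. Nuclei were stained for NeuN, a neuronal protein, and for GFP. All 5 libraries share 1 treatment label (foot shock and collection on day 0, without recall), while the protocol describes collection after 1.5 to 2 h and after 5 days. The states are therefore called by their titles only, and no age or sex is given for the mice. The files hold positions and no expression, so no marker of the sorted cells could be checked.

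The measurement is PC1, the first principal component of the contact patterns of a library, a signed score without a unit. In the convention of HOMER, the tool used by the submitters, positive PC1 marks compartment A, which is open and gene-rich, and negative PC1 marks compartment B, which is closed and often lies at the nuclear edge. Very long genes are mostly intron, are often expressed in neurons, and can fill a compartment domain by themselves. Lrp1b encodes a large endocytic receptor of the low-density lipoprotein receptor family. Csmd1 encodes a membrane protein of CUB and sushi domains that restrains complement and is abundant in brain. Macrod2 encodes an enzyme with a macrodomain that removes ADP-ribose from proteins. In the RefSeq table of GRCm38, used here for gene order only, Flrt3, which encodes an adhesion protein of axons and synapses, lies inside Macrod2. Another protein-coding gene, C030002A05Rik, lies inside Csmd1. The same table gives Ppp6c and Kynu as the nearest protein-coding genes on either side of Lrp1b, Myom2 and Mcph1 for Csmd1, and Sel1l2 and Kif16b for Macrod2. Macrod2 is read toward higher coordinates. By general knowledge, not checked here, Lrp1b and Csmd1 are read toward lower ones, so their promoters lie at the higher-coordinate end. The bodies were taken in whole bins of 50 kb. Whether a promoter falls just inside or just outside its body was therefore not settled.

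PC1 had an SD between 1.000 and 1.006 on each chromosome of each library, so values show a place within the chromosome and not the strength of compartments. Over chromosome 2 the Pearson r between libraries was 0.931 to 0.990, and over chromosome 8 it was 0.928 to 0.987. The highest of these belonged to the Basal pair. Local noise was estimated from the deviation of each bin from the bins 100 kb to either side. These deviations were compared between pairs of libraries and the variance was split over the libraries. The estimate was 0.127 and 0.129 PC1 units for Basal, 0.226 for Early, and 0.114 and 0.204 for Late. By it the Early library and Late replicate 2 were the noisiest. All pairs with Early are between groups, so local differences of that state can count as its noise. Depth cannot be read from the files, which hold no counts, and counting error is therefore not given. Whether the replicates of 1 group came from different animals is not stated, so p-values measure the spread between these libraries, which may be technical.

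The 3 genes held different places in the compartments and differed in what the states showed. Csmd1 lay in A along its whole length in Basal, was close to the border of A and B in Early, and lay on that border in Late. Macrod2 lay on the border in Basal and in Early and was in B along its whole length in Late. Lrp1b stayed in B in every bin of every library.

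The mean PC1 over the Csmd1 body was 0.694 and 0.571 for Basal, 0.137 for Early, and -0.00382 and -0.0735 for Late. Both Late values were below both Basal values. The 1 Early library lay between them, and its difference from Late did not pass, as given below. The Macrod2 body averaged -0.0420 and 0.0145 for Basal, 0.0351 for Early, and -0.617 and -0.404 for Late. Here both Late libraries lay apart from the other 3, which were within 0.1 of 0. The Lrp1b body averaged -0.848 and -0.782 for Basal, -1.02 for Early, and -0.814 and -0.912 for Late, so Basal and Late overlapped and Early was the lowest. In all 5 libraries Csmd1 was highest, Macrod2 next and Lrp1b lowest. The gap between Csmd1 and Macrod2 was 0.736 and 0.557 for Basal, 0.102 for Early, and 0.613 and 0.330 for Late. In Basal and in Late each gap between neighbours in this order was larger than the SD of either gene between libraries. The Early gap of 0.102 comes from 1 library and has no such spread.

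**Figure D1:**
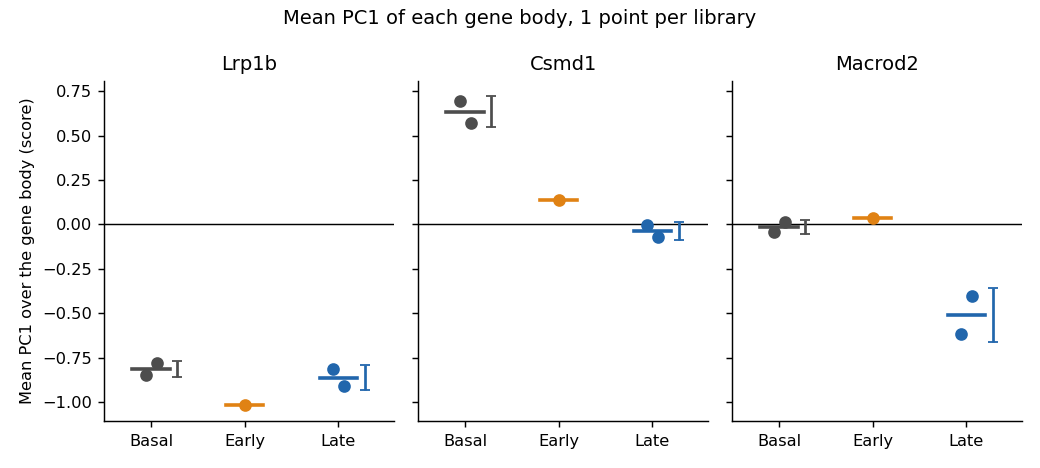
Mean PC1 over the body of each gene (vertical axis, score without unit) by state, with 1 point per library, a line at the group mean and a bar of ± 1 SD beside groups of 2 libraries. The 1 Early point of Csmd1 lies between its Basal and its Late points. The Late points of Macrod2 lie below its other points, and the Lrp1b points lie between -1.02 and -0.782.

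Set among all 47652 analysed bins, the Csmd1 mean exceeded 69.7% and 66.6% of bins for Basal, 54.7% for Early, and 51.7% and 49.7% for Late. Macrod2 exceeded 51.8% and 53.2% for Basal, 51.8% for Early, and 35.9% and 40.8% for Late. Lrp1b exceeded 26.8% and 29.2% for Basal, 18.6% for Early, and 29.5% and 24.0% for Late. Csmd1 thus lay near the middle of the distribution in Late, against its upper part in Basal, and Macrod2 in the lower part in Late, against the middle in Basal.

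Late was compared with Basal bin by bin to ask which parts of the genes sit in another compartment environment. Using limma across all analysed bins at a Benjamini-Hochberg adjusted p of 0.05, 52 of the 112 bins were called (46.4%), all 52 lower in Late. Over all bins 16.4% were called, 7.63% lower and 8.78% higher in Late. The 52 bins were 28 of the 32 in Csmd1 and 24 of the 39 in Macrod2. In Lrp1b limma called 0 of 41 bins, with 1 bin at an unadjusted p under 0.05 and a lowest adjusted p of 0.138. Without Late replicate 1 it called 4 bins of Lrp1b, 3 lower and 1 higher in Late, in a fit that called 30.2% of all bins. Bins of 1 gene share reads with their neighbours and are not independent, so these counts describe the length of a change and not many separate changes. With all deposited sequences in the fit, chromosome 7 included, limma called 0 of all 50542 bins, so its 0 calls in these genes are not particular to them. In that fit 64 bins of the genes had an unadjusted p under 0.05. Leaving out Basal replicate 1 gave 14 called bins in the genes, beside 5.54% of all bins, and leaving out Basal replicate 2 gave 21, beside 5.96%. Removing a 10 Mb running mean gave 18, beside 11.9%.

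The body means were tested in 1 limma fit together with 1204 windows of 2 Mb over the analysed chromosomes. Csmd1 averaged -0.0387 ± 0.0493 in Late and 0.633 ± 0.0872 in Basal (SD, n = 2 each), a difference of -0.671 (SE 0.0545, limma adjusted p = 0.000781). Macrod2 averaged -0.510 ± 0.151 in Late and -0.0138 ± 0.0400 in Basal (SD, n = 2 each), a difference of -0.497 (SE 0.0743, limma adjusted p = 0.00406). Lrp1b averaged -0.863 ± 0.0699 in Late and -0.815 ± 0.0468 in Basal (SD, n = 2 each), a difference of -0.0484 that did not pass (SE 0.0493, limma adjusted p = 0.446). Csmd1 and Macrod2 therefore fell in Late by more than the spread between libraries, and for Lrp1b the libraries of the groups overlapped. Without Late replicate 1 the Lrp1b difference passed (-0.0980), and without Late replicate 2 it was 0.00100. In these 2 fits the spread came from the Basal pair alone and held none between Late libraries.

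That test is a lenient one at this length, because 52.9% of windows and bodies were called in Late versus Basal, 26.3% as lower and 26.6% as higher. The size of each difference is therefore set beside those of the windows. The median absolute difference over windows was 0.143. A difference as low as that of Csmd1 or lower was found in 1.66% of windows, as low as that of Macrod2 in 2.41%, and as low as that of Lrp1b in 41.03%. Leaving out Basal replicate 1, with 8.37% of windows and bodies called, kept the call of Csmd1 (difference -0.610, limma adjusted p = 0.0183). The Macrod2 call was lost without Basal replicate 1 (difference -0.525, limma adjusted p = 0.0524) and without Basal replicate 2 (-0.468, limma adjusted p = 0.0562). With a 10 Mb running mean removed, the difference was -0.399 for Csmd1 and -0.272 for Macrod2, and both calls were kept. An exact permutation test of 2 against 2 libraries cannot reach a p of 0.05 and was not used.

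**Figure D2:**
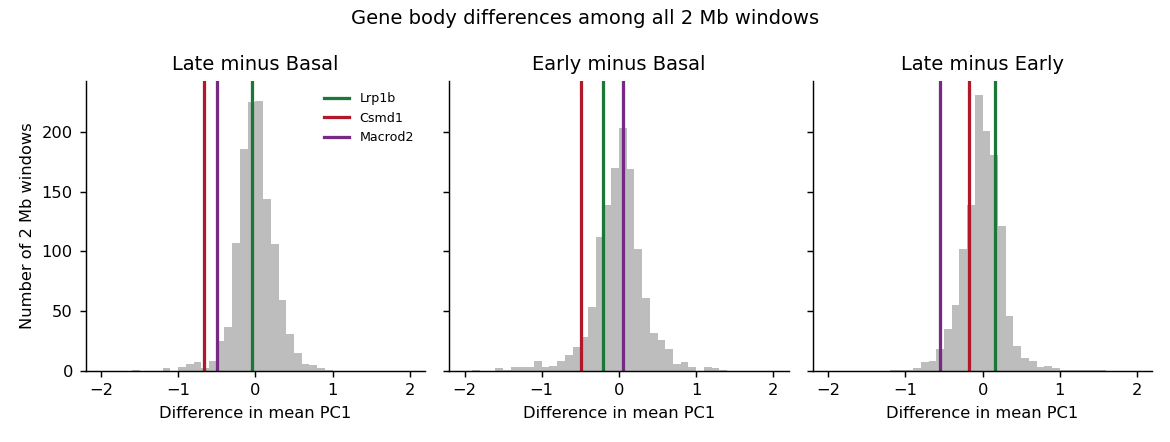
Distribution of the difference in mean PC1 (horizontal axis, score) over 1204 windows of 2 Mb (grey, number of windows on the vertical axis) for the 3 comparisons, with the differences of the gene bodies as vertical lines. In Late minus Basal, Csmd1 (-0.671) and Macrod2 (-0.497) lie in the lower tail and Lrp1b (-0.0484) near the centre.

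In Basal the Csmd1 gene lay within an A domain. All 32 bins were positive in both Basal libraries, with a lowest bin of 0.397 in replicate 1 and 0.248 in replicate 2, at the same place, 17300001 to 17350000. The run of positive bins holding the middle of the gene went from 15750001 to 17550000 in Basal replicate 1 (1800 kb) and from 15400001 to 17600000 in replicate 2 (2200 kb). The A domain thus ended within 100 kb of the higher-coordinate end of the gene in both, while on the other side it began 150 kb before the gene in replicate 1 and 500 kb before it in replicate 2. The highest bins were 1.06 at 16200001 to 16250000 in replicate 1 and 0.911 at 16350001 to 16400000 in replicate 2, both in the lower-coordinate part of the gene, away from its promoter.

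In Late no A domain spanned the gene in either library. Its middle lay in a B run of 100 kb in Late replicate 1 and in an A run of 500 kb, 16600001 to 17100000, in Late replicate 2. Positive bins numbered 13 of 32 in each Late library, against 32 of 32 in each Basal library. Every Late value was below every Basal value in all 32 bins, where 31.9% of all analysed bins had that order. Late replicate 1 ranged from -0.186 to 0.200 along the gene, while Late replicate 2 ranged from -0.606 at 15950001 to 16000000 to 0.376 at 16850001 to 16900000. The Late libraries therefore shared the level of the gene but not its detail, and their profiles along the 32 bins correlated with r = -0.0408, against 0.779 for the Basal pair. By sign alone, 12 bins were in A in both Basal libraries and in B in both Late libraries, and 0 the other way. Over all bins 2.62% went from A to B in this way and 3.13% from B to A.

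In the group means the fall of Csmd1 was largest at its lower-coordinate end and went on beyond it. In 4 consecutive segments of the gene from low to high coordinates, Late minus Basal was -0.886, -0.657, -0.503 and -0.639. The Late libraries differed most in the first segment, at 0.0652 in replicate 1 and -0.277 in replicate 2, against 0.842 and 0.718 in Basal. The size of the fall there thus rests more on Late replicate 2, the noisier of the Late libraries. The region of largest mean difference covered 15400001 to 16600000 (1200 kb). It starts at the outermost bin of the 500 kb flank, so its start and length are cut there. There PC1 was -0.188 and -0.339 in the Late libraries and 0.533 and 0.471 in the Basal libraries, a mean difference of -0.765 over 22 called bins (limma adjusted p at most 0.0485). A second region covered 16900001 to 17650000 with a mean difference of -0.611 over 14 called bins. The bin that fell most was 16200001 to 16250000, with a difference of -1.06, where Basal replicate 1 had its highest value. It was at 0.174 in Late replicate 1 and -0.423 in Late replicate 2.

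PC1 was lower in Late in both flanks of Csmd1 too, by unequal amounts. In the 500 kb on the lower-coordinate side, toward Myom2, PC1 was -0.480 ± 0.0133 in Late and 0.148 ± 0.0504 in Basal (SD, n = 2 each). The difference of -0.628 was close to that of the body (-0.671). On the other side, toward Mcph1, PC1 was -0.738 ± 0.0324 in Late and -0.441 ± 0.0213 in Basal (SD, n = 2 each), a difference of -0.297. In both flanks together limma called 10 of 20 bins, all lower in Late, beside 16.4% of all bins called and 7.63% called lower. The body stayed above its flanks in every library, by 0.589 and 0.552 in Late and by 0.867 and 0.693 in Basal.

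The step in PC1 at each gene end was taken as the mean of the 250 kb inside minus the 250 kb outside. At the higher-coordinate end of Csmd1, where its promoter lies, the step was 0.652 and 0.579 for Basal, 0.0295 for Early, and 0.358 and 0.331 for Late. At the lower-coordinate end it was 0.662 and 0.443 for Basal, 0.169 for Early, and 0.360 and 0.0625 for Late. Both ends were thus steepest in the Basal libraries. These steps were not tested, and steps at other places were not computed.

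**Figure D3:**
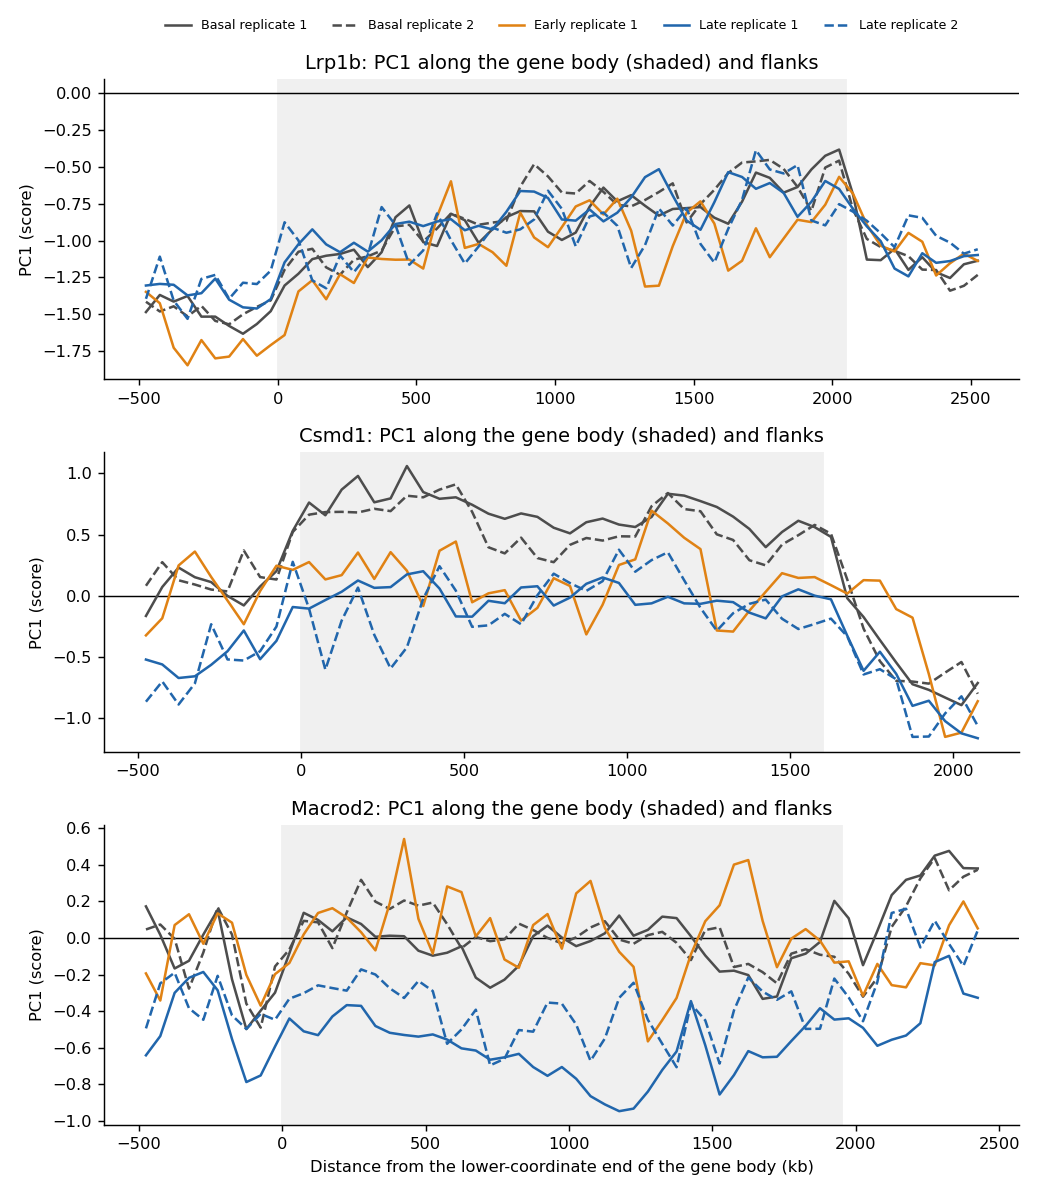
PC1 (vertical axis, score) along each gene body (shaded) and 500 kb on either side, by distance in kb from the lower-coordinate end, with 1 line per library (solid for replicate 1, dashed for replicate 2). The Basal lines of Csmd1 stand between 0.248 and 1.06 over the whole body, and the Late lines of Macrod2 stay below 0. The Lrp1b lines stay below 0 and are on average higher in the last segment of the body than in the first.

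Macrod2 differed from Csmd1 in where it started. In Basal its bins lay close to 0, from -0.333 to 0.202 in replicate 1 and from -0.248 to 0.317 in replicate 2, with 19 and 21 of 39 bins positive. In Late 0 of 39 bins were positive in both libraries, with ranges of -0.946 to -0.345 in replicate 1 and -0.706 to -0.172 in replicate 2. Every Late value was below every Basal value in 38 of the 39 bins (31.9% of all bins). The B domain that held the middle of the gene in Late went from 135750001 to 143650000 in replicate 1 (7900 kb) and from 135850001 to 142350000 in replicate 2 (6500 kb). In Basal the same bin sat in runs of 150 kb and 50 kb.

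By sign, 12 bins of Macrod2 were in A in both Basal libraries and in B in both Late libraries, and 0 the other way. Over all bins these shares were 2.62% and 3.13%. Most crossings of the border were narrow. When each library had to be at least 0.1 from 0, the count over all 3 genes was 3, against 24 without that margin. The share over all bins with that margin was not counted, so the drop cannot be called particular to these genes. The lowest Late bins were 141400001 to 141450000 in replicate 1 (-0.946) and 141600001 to 141650000 in replicate 2 (-0.706), and the highest Basal bins were 142150001 to 142200000 in replicate 1 (0.202) and 140500001 to 140550000 in replicate 2 (0.317).

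Along Macrod2 the fall was deepest in its middle. In 4 consecutive segments from the promoter end onward, Late minus Basal was -0.448, -0.526, -0.633 and -0.365. The longest called region covered 140800001 to 141800000 (1000 kb), with PC1 of -0.728 and -0.532 in the Late libraries and -0.0369 and 0.0205 in the Basal libraries. Its mean difference was -0.622 over 17 called bins (limma adjusted p at most 0.0406). A further 6 called bins lay at 140300001 to 140700000, near the promoter, with a mean difference of -0.491. The called region with the largest mean difference was a single bin of the flank, 139750001 to 139800000, at -0.641 and -0.494 in Late and 0.172 and 0.0460 in Basal (difference -0.676, limma adjusted p = 0.00903). It is the outermost bin of the 500 kb flank, so whether the region goes on beyond it was not followed.

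PC1 was lower in Late in the surroundings of Macrod2 too. The 500 kb on the Sel1l2 side had PC1 of -0.430 ± 0.0778 in Late and -0.121 ± 0.0206 in Basal (SD, n = 2 each), and the 500 kb on the Kif16b side -0.238 ± 0.220 in Late and 0.190 ± 0.0952 in Basal (SD, n = 2 each). Of these 20 bins limma called 7, all lower in Late, beside 16.4% of all bins called and 7.63% called lower. The body lay below its flanks by about the same amount in both Late libraries, with a body minus flank value of -0.178 and -0.175, against -0.103 and 0.00638 in Basal. The steps at the ends of Macrod2 were all below the Basal steps of Csmd1, and the highest was 0.313, at the promoter end in Basal replicate 1. Macrod2 in Late was thus part of a wider stretch of low PC1.

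**Figure D4:**
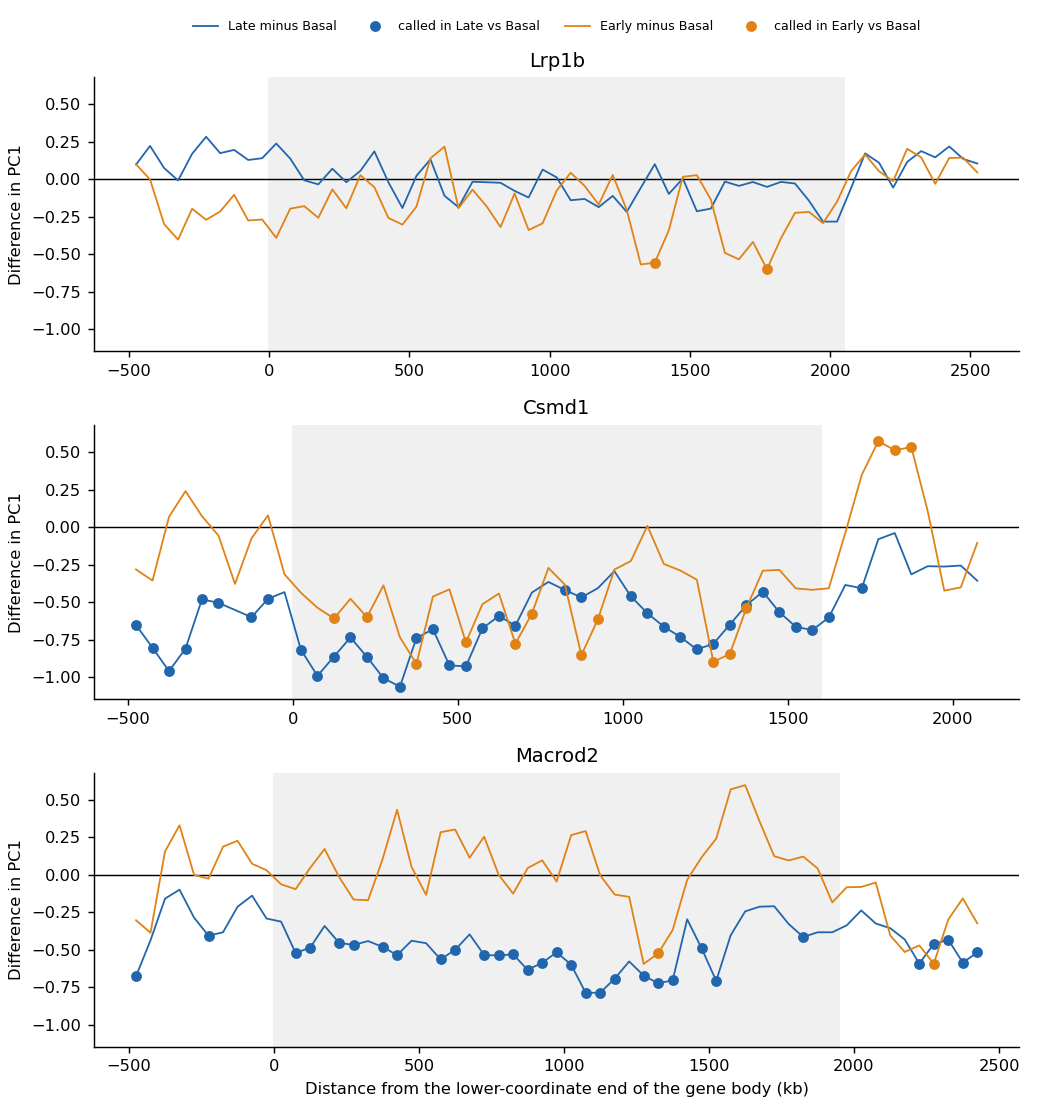
Difference in PC1 (vertical axis, score) for Late minus Basal and Early minus Basal in each bin of the gene bodies (shaded) and flanks, by distance in kb from the lower-coordinate end. Points mark bins called by limma at an adjusted p of 0.05. In Late they fill most of Csmd1 (28 of 32 bins) and much of Macrod2 (24 of 39), in Early they are scattered over Csmd1 (11 bins), and Lrp1b has 0 in Late and 2 in Early.

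Lrp1b is the gene of the 3 that is farthest into B, and its ends differed in PC1. In each library, the last 500 kb at its promoter end had a higher PC1 than the first 550 kb at its other end. The far segment had PC1 of -1.07 and -1.08 for Basal, -1.26 for Early, and -0.996 and -1.07 for Late. The promoter segment had -0.622 and -0.550 for Basal, -0.930 for Early, and -0.660 and -0.725 for Late. All 5 promoter values were above all 5 values of the far segment. The rise between them was not even. In Early the segments after the far one were nearly level, at -0.950, -0.917 and -0.930. Late replicate 2 had -0.910 in segment 2 and -0.929 in segment 3. The lowest bin of the gene was the one farthest from its promoter, 40450001 to 40500000, in Basal replicate 1 (-1.31), Early (-1.64) and Late replicate 1 (-1.15).

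Both flanks of Lrp1b had lower mean PC1 than the gene. On the promoter side the gap was small in Early (-1.026 in the flank, -1.02 in the gene) and in Late replicate 2 (-0.947 and -0.912). Every Late library was below every Basal library in 8 of its 41 bins and above in 5, where all bins gave 31.9% below and 30.1% above. Body minus flanks was 0.453 and 0.520 for Basal, 0.331 for Early, and 0.402 and 0.217 for Late. The step at the promoter end was 0.513 and 0.417 for Basal, 0.117 for Early, and 0.325 and 0.190 for Late. At the other end it was 0.384 and 0.345 for Basal, 0.373 for Early, and 0.353 and 0.169 for Late. Lrp1b therefore formed a shallow rise within a B domain that began at 39050001 in all 5 libraries. The domain ended at 44900000 and 44650000 in Basal, at 48800000 in Early, and at 44850000 and 44300000 in Late.

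**Figure D5:**
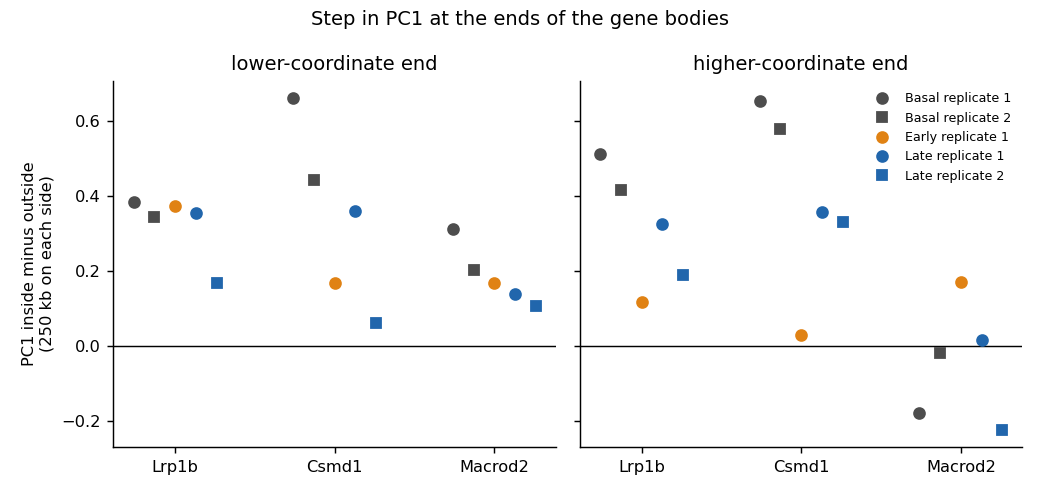
Step in PC1 at the ends of each gene body (vertical axis, mean of the 250 kb inside minus the mean of the 250 kb outside, score), with 1 point per library and genes along the horizontal axis. The highest step at either end is that of Csmd1 in Basal replicate 1 (0.662 and 0.652), and Lrp1b and Csmd1 are positive at both ends in all 5 libraries.

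Early was compared with Basal from 1 Early library, whose spread is assumed to be like that of the other groups. This comparison shares the Basal libraries with the one above, so the values are set side by side and no overlap is drawn from them. In limma 14 of 112 bins were called (12.5%), all lower in Early, and 19.9% of all bins were called (9.98% lower, 9.97% higher). The share over the 3 genes was below that of all bins for both directions together and slightly above it for lower bins. The 14 bins were 11 in Csmd1, 2 in Lrp1b and 1 in Macrod2. Leaving out Basal replicate 1 gave 3 bins, beside 8.91% of all bins, and Basal replicate 2 gave 6, beside 9.43%. Leaving out Late replicate 1 gave 38, as did Late replicate 2, each beside 37.5% of all bins and with 3 of the 38 higher in Early. The count became 26 with chromosome medians aligned (23.3% of all bins), 9 with a 10 Mb running mean removed (11.7%), 5 with libraries weighted by their noise (7.23%) and 2 with all sequences (4.12%). Early was below both Basal libraries in 31 of 32 bins of Csmd1, 31 of 41 of Lrp1b and 13 of 39 of Macrod2, where all bins gave 44%. It was above both in 21 bins of Macrod2, where all bins gave 44.1%.

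The Csmd1 body averaged 0.137 in Early and 0.633 ± 0.0872 in Basal (SD, n = 2), a difference of -0.496 (SE 0.0667, limma adjusted p = 0.00319). Of all windows and bodies 50.9% were called, 25.8% lower and 25.1% higher, and 5.73% of windows had a difference as low or lower. The largest fall was in the bin 16250001 to 16300000, at -0.0850 in Early and 0.848 and 0.805 in Basal (difference -0.912, limma adjusted p = 0.00589). Early had 23 of 32 bins positive, from -0.317 at 16750001 to 16800000 to 0.696 at 16950001 to 17000000. That highest bin lay between its Basal values of 0.644 and 0.732. The 9 bins of Csmd1 that were in A in both Basal libraries and in B in Early compare with 4.09% of all bins.

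Beyond the promoter end of Csmd1, Early moved the other way. The bins from 17650001 to 17800000 had a mean PC1 of -0.0557 in Early and -0.545 and -0.645 in Basal, a rise of 0.540 over 3 called bins (limma adjusted p at most 0.0461). Late had -0.667 and -0.814 there, below Basal. In Early the border of Csmd1 on this side was nearly flat, with the step of 0.0295 given above. The lower-coordinate flank averaged 0.0471 in Early and 0.148 ± 0.0504 in Basal (SD, n = 2).

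The Lrp1b body averaged -1.02 in Early and -0.815 ± 0.0468 in Basal (SD, n = 2), a difference of -0.206 (SE 0.0604, limma adjusted p = 0.0361). A difference as low or lower was found in 21.1% of windows. The call was lost without Basal replicate 1 (limma adjusted p = 0.136), without Basal replicate 2 (0.228), with all sequences in the fit (0.0793) and with libraries weighted by their noise (0.0835). The difference was largest in the promoter segment, at -0.344, and the 2 called bins were 41800001 to 41850000 (difference -0.555) and 42200001 to 42250000 (-0.599).

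The Macrod2 body averaged 0.0351 in Early and -0.0138 ± 0.0400 in Basal (SD, n = 2), a difference of 0.0489 that did not pass (SE 0.0910, limma adjusted p = 0.673). Its sign depended on the scaling, at -0.104 with chromosome medians aligned and -0.0200 with quantile normalization. The Early profile was uneven, from -0.565 at 141500001 to 141550000 to 0.540 at 140650001 to 140700000, with 14 changes of sign along the gene, against 7 and 14 in Basal. By sign 6 bins went from B in Basal to A in Early and 3 the other way, where all bins gave 5.7% and 4.09%. The called bin of the gene was 141550001 to 141600000 (difference -0.524). A flank bin, 142500001 to 142550000, had the largest called difference, with -0.150 in Early and 0.449 and 0.436 in Basal (difference -0.593, limma adjusted p = 0.0297).

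Late was last compared with Early. In limma 18 of 112 bins were called (16.1%), 15 lower and 3 higher in Late, beside 12.7% over all bins (6.44% lower, 6.28% higher). All 15 lower bins lay in Macrod2 and the 3 higher bins in Lrp1b. The Macrod2 body averaged -0.510 ± 0.151 in Late (SD, n = 2) and 0.0351 in Early, a difference of -0.545 (SE 0.0910, limma adjusted p = 0.00867). A difference as low or lower was found in 2.41% of windows, and 44.2% of all windows and bodies were called, 22.2% lower and 22% higher. The region of largest difference was 141700001 to 141900000, with -0.702 and -0.437 in Late and 0.274 in Early (mean difference -0.843 over 4 called bins). By sign, 23 bins of Macrod2 were in A in Early and in B in both Late libraries (4.1% of all bins), and 0 the other way. For Csmd1 these counts were 8 from A to B and 3 from B to A, where 3.46% of all bins went from B to A. Both Late libraries were below Early in 38 of 39 bins of Macrod2 and 21 of 32 of Csmd1 (40.1% of all bins), and above it in 24 of 41 bins of Lrp1b (39.7%). With libraries weighted by their noise the 18 called bins became 3, beside 2.1% of all bins, and with a 10 Mb running mean removed 7, beside 7%. With all sequences limma called 0 of all 50542 bins, with 34 bins of the genes at an unadjusted p under 0.05. Leaving out Basal replicate 1 gave 11 bins, as did Basal replicate 2, each beside 7.97% of all bins, and Late replicate 2 gave 39, beside 26.5%.

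Csmd1 had 0 called bins in its body between Late and Early by limma, with 8 bins at an unadjusted p under 0.05. Its body averaged -0.0387 ± 0.0493 in Late (SD, n = 2) and 0.137 in Early, a difference of -0.176 that did not pass (SE 0.0667, limma adjusted p = 0.0804). Aligning chromosome medians brought it past the threshold (-0.228, limma adjusted p = 0.0385). So did leaving out Late replicate 1 (-0.211) or Late replicate 2 (-0.141), in fits whose spread came from the Basal pair alone. With a 10 Mb running mean removed the difference was -0.00900. Its flanks held 8 called bins of 20, all lower in Late, beside 12.7% of all bins called and 6.44% called lower. They were led by 15500001 to 15600000 at -0.667 and -0.804 in Late and 0.304 in Early (mean difference -1.04). For Lrp1b the difference was 0.157 (SE 0.0604, limma adjusted p = 0.0831), from -0.863 ± 0.0699 in Late (SD, n = 2) and -1.02 in Early. It passed with chromosome medians aligned (0.316, limma adjusted p = 0.0147), and in the same 2 fits without Late replicate 1 (0.108) or Late replicate 2 (0.207). The region of its largest called difference was the bin 41800001 to 41850000, at -0.516 and -0.782 in Late and -1.31 in Early (difference 0.657, limma adjusted p = 0.0374). For Macrod2 the large difference was thus Late minus Early (-0.545, against 0.0489 for Early minus Basal), and for Csmd1 Early minus Basal (-0.496, against -0.176 for Late minus Early). Whether the genes differ in this was not tested.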

How the data were processed

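Each of the 5 libraries came as 1 deposited table of PC1, a signed score per 50 kb bin computed in 100 kb windows, made with HOMER on mm9, per the submitters' processing notes and the file headers. The HOMER version, aligner, read filters and the rule for the sign are not stated, and depth is unknown. Bins with a value in all 5 files were taken (50542 bins), and autosomes and X were kept where every pair of libraries had a Pearson r of at least 0.5, which left out chromosome 7 (lowest r -0.976). PC1 was fitted as deposited with limma 3.58.1 in R 4.3.3, groups only, 2-sided, adjusted over all 47652 bins (2 residual and 6.60 prior degrees of freedom). Body means were fitted with 2 Mb windows of at least 20 bins (prior 3.57). Called bins of 1 direction were merged across at most 1 bin. Named were the region of largest mean difference per gene, direction and comparison, and the highest and lowest bins; other regions and bins were added after their values were seen. The fits were also run on simulated data with independent noise in each bin or window. Neighbouring bins here are not independent, so those runs do not check the number of calls. Python 3.11.15 was used for the rest. Members and tests were chosen with earlier results of these data known. Basal and Late libraries share replicate numbers only. Alternatives were other scalings, sequences, windows, thresholds, noise weights, a replicate block and leaving out each library. Sequence was not used here.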

Additional observations from a re-analysis of the deposited data

How the results depend on the processing

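Body differences of Csmd1 and Macrod2 in Late versus Basal kept their direction under each alternative run, and that of Csmd1 also its call. Macrod2 in Early versus Basal reversed with quantile normalization (-0.0200) and aligned chromosome medians (-0.104), and Lrp1b in Late versus Basal without Late replicate 2 (0.00100). Past or short of the threshold went Lrp1b in Early versus Basal (-0.206 with all sequences, -0.205 with noise weights, which were chosen after seeing the data; limma adjusted p 0.0793 and 0.0835) and, with aligned medians, Lrp1b (0.316) and Csmd1 (-0.228) in Late versus Early. Called bins in Late versus Basal, 52, were 0 with all sequences (0% of all bins, 64 in the genes at an unadjusted p under 0.05 in limma) and 18 with the 10 Mb running mean removed (11.9%). In Early versus Basal, 14 (19.9% of all bins) became 26 with aligned medians (23.3%), 2 with all sequences (4.12%), 9 with the running mean removed (11.7%), 30 at an adjusted p of 0.10 (30.3%) and 5 with noise weights (7.23%). In Late versus Early, 18 (12.7%) became 0 with all sequences (0%), 7 with the running mean removed (7%), 31 at 0.10 (22.3%) and 3 with noise weights (2.1%). With each library at least 0.1 from 0, bins of opposite sign were 3 of 24 in Late versus Basal, 8 of 18 in Early versus Basal and 16 of 34 in Late versus Early. The share over all bins with that margin was not counted. The cause of these changes was not tested. All sequences include chromosome 7, where PC1 has opposite signs between libraries.

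Leaving out 1 library gave 14 to 64 called bins in Late versus Basal, 3 to 38 in Early versus Basal and 11 to 39 in Late versus Early, while the share over all bins ran from 5.54% to 30.2%, 8.91% to 37.5% and 7.97% to 26.5%. It gave 31 to 33, 21 to 31 and 39 to 43 bins of opposite sign (these last added after seeing the data, with no share counted over all bins). Body differences ran from -0.733 to -0.610 for Csmd1, -0.603 to -0.390 for Macrod2 and -0.0980 to 0.00100 for Lrp1b in Late versus Basal. They ran from -0.557 to -0.434, 0.0210 to 0.0770 and -0.239 to -0.173 in Early versus Basal, and from -0.211 to -0.141, -0.652 to -0.439 and 0.108 to 0.207 in Late versus Early. A group left with 1 library is assumed to vary like the others.

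With the replicate block, called bins were 55 in Late versus Basal (18.4% of all bins), 20 in Early versus Basal (20.1%) and 20 in Late versus Early (12.2%). No call of a body mean changed. In Early versus Basal 3 of the 20 were higher in Early, all in Macrod2, where the 1 bin called without the block was lower. Basal and Late libraries of the same number did not deviate together (r = 0.0100 over bins), so they share only a number.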
